A study of Homo sapiens with 18 samples.

Results

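The F279S derivative of THP-1 was compared with its parental line, labelled wt, in 4 libraries each, which are 8 of the 18 RNA sequencing libraries of the series. The members were chosen by their titles and genotype labels. THP-1 is an established human monocytic line from an acute myeloid leukaemia and carries the MLL-AF9 fusion, which both groups share. The F279S line carries the F279S form of PHF8, the other is labelled wt, and no treatment is given for either. Another 4 libraries, from a line with added PHF8 without that substitution, were compared with F279S directly and enter 1 alternative fit. Each derivative is 1 line, and whether it is a clone or a pool, or which vector or promoter drives the added form, is not given in the sources used here. Cells grew in DMEM with fetal bovine serum, RNA was taken up on RNeasy columns, and poly(A) libraries made with NEBNext Ultra II reagents were read on a NextSeq 500. Nothing in the labels says whether the 4 libraries of a line are separate cultures, so every p-value measures only the spread between these libraries.

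PHF8 is a histone demethylase of the Jumonji family. Its PHD finger reads methylated lysine at promoters and its JmjC domain removes methyl groups from other histone lysines, in a reaction that needs iron and 2-oxoglutarate. F279S is known as a substitution in the JmjC domain that leaves the protein without catalytic activity. In monocytic leukaemia cells the genes of interest include interferon-stimulated genes, the transcripts that cells raise on type I interferon, and the self-renewal programme kept by MLL fusions.

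Library totals ran from 18.2 to 51.5 M reads, and 13438 of the 19784 genes in the deposited tables reached 1 CPM (reads per 1e6 reads of the library) in at least 4 of the 8 libraries and were tested. The libraries of each line fell into pairs. Over genes with at least 20 reads, the mean chi-square per gene between libraries of a line was 1.95 to 11.8 within libraries 1 and 2 or within 3 and 4, but 49.3 to 75.8 across these pairs. In wt alone 651 genes stood at least 2-fold apart between the pairs, 582 of them lower in libraries 1,2. What the pairs are is not given in the labels. Markers of monocytic leukaemia cells matched the labelled cell type: all 13 were measured at 1 CPM or more in some library. They summed to 4112 to 4403 CPM in wt and to 3287 to 3620 CPM in F279S, the ranges not overlapping. Of markers of other cells, 5 red cell and 4 epithelial ones stayed under 1 CPM in every library. COL1A1, a fibroblast collagen, stood at 20.5 CPM in F279S library 2 and at 0.77 to 1.43 CPM in the other 7 wt and F279S libraries. COL1A2 and DCN, of the same cells, were also highest there, at 10.2 and 1.21 CPM against at most 0.22 and 0.09 CPM in those 7. PDGFRB was not (2.52 CPM, within 2.16 to 5.15). Library 1 of the PHF8 line was also high, at 13.3, 10.0 and 0.96 CPM for COL1A1, COL1A2 and DCN. PHF8 libraries 2 to 4 held at most 1.69, 0.25 and 0.03 CPM. The 4 fibroblast markers summed to at most 34.4 CPM in F279S and 6.40 CPM in wt. Their part in the results was not tested, and values without F279S library 2 are given where they end a call.

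PHF8 RNA (chromosome X, 53936676 to 54048958, hg38) checked the labels. It stood at 53.4, 49.3, 54.0 and 45.5 CPM in wt libraries 1 to 4 and at 5781, 5333, 5409 and 5001 CPM in F279S libraries 1 to 4. The excess was nearly equal in the pairs, 108-fold in libraries 1,2 and 105-fold in libraries 3,4, so that PHF8 made up 0.50 to 0.578% of all reads of an F279S library. On the log2(CPM + 0.5) scale used for every fold change here, the rise was 6.72 ± 0.06 (SE, adjusted p = 9.6e-16). The line with active PHF8 held 2096, 2080, 2006 and 1900 CPM, and the F279S mean was 2.66 times that line's. Reads of the added and the resident gene cannot be told apart. Within 500 kb of PHF8, 5 genes were tested and 0 were called by limma, 0 at an unadjusted p below 0.05 and 0 by voom.

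Against this very large rise of PHF8, the rest of the transcriptome moved little. With the library pair as a term, 832 genes passed an adjusted p of 0.05 by limma (6.19% of those tested), 525 higher in F279S (3.91%) and 307 lower (2.28%). At an unadjusted p below 0.05 there were 3295. The median size of a called change was 0.29 on the log2 scale, 70 genes changed at least 1.5-fold and 7 at least 2-fold. A gene was taken to hold in both pairs when it was called and both F279S libraries lay on the same side of both wt libraries in each pair. This held for 798 genes (5.94%), 513 higher (3.82%) and 285 lower (2.12%), while 20.3% of all genes tested met the same condition with or without a call, 11.6% higher and 8.71% lower. Of the 798, 260 share their span with another gene of the table, and the 22 lines of the PCDHG protocadherin cluster, all called higher, share the reads of 1 locus. The contrast within libraries 1,2 called 746 genes (5.55%), 486 higher (3.62%) and 260 lower (1.93%). Its spread was pooled over all 8 libraries, as was that within libraries 3,4, so the pairs are not independent tests. The contrast within libraries 3,4 called 31 (0.231%), 21 higher (0.156%) and 10 lower (0.0744%).

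The counts depend on how the pairs are handled. Without the pair term 3 genes were called, PHF8, ACPP and MYL9, so every other call over all 8 libraries named below is lost in that fit. Entering each library's number as a block in place of the pair gave 2167 calls, 1002 of them higher and 1165 lower, and 1481 held. That fit was run because same-numbered libraries deviated together from their line means. With pair means also removed, the same-number correlation was -0.03 for libraries 1 and 2 and 0.68 for libraries 3 and 4. Beyond the pair, the ground for the block therefore holds only for libraries 3 and 4. Leaving out wt library 1 or 2 left 250 or 209 calls, leaving out F279S library 1 or 2 left 439 or 287, and leaving out wt library 4 gave 1472. In all, 191 genes kept their call whichever 1 of the 8 libraries was left out, and 147 of these, 109 higher and 38 lower, also kept it under 8 further settings: the block, averaged pairs, all 12 libraries, a pseudocount of 0.1 or 2, no filter, median-of-ratios scaling and voom. The fit without the pair term is not among them. Membership of that set of 147 is given below.

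**Figure D1:**
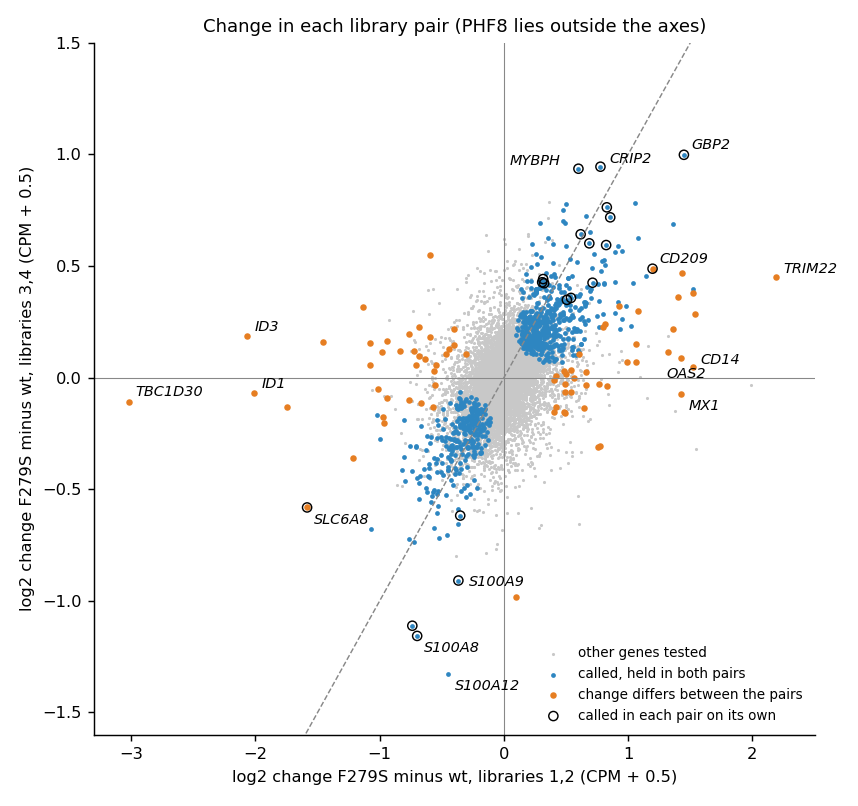
Change of each tested gene in F279S against wt, as log2(CPM + 0.5), in libraries 1,2 (x axis) and in libraries 3,4 (y axis), with PHF8 outside the axes. Blue points are genes called over all 8 libraries that held in both pairs. Orange points are the 76 genes whose change differed between the pairs. Rings are the 21 genes called within each pair with the pooled spread, PHF8 being the ring not shown. The dashed line marks equal change. Most blue points have a larger change in libraries 1,2 than in libraries 3,4, and OAS2, MX1, CD14, ID1 and ID3 lie close to the x axis.

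The plot of the change in each pair shows the direction shared by the pairs and the difference in size. Of the 798 genes that held, 569 had the larger change in libraries 1,2. Of the 746 genes called in libraries 1,2, 623 had the same sign in libraries 3,4. Called within each pair, with the pooled spread, were 22 genes. Of these, 21 had the same direction (0.156% of genes tested), 16 higher and 5 lower. The exception was PLOD2, a lysyl hydroxylase of collagen, at 9.21, 9.89, 22.9 and 24.8 CPM in wt and 6.32, 5.98, 33.4 and 36.9 CPM in F279S (-0.60 in libraries 1,2, adjusted p = 0.0044, and 0.55 in libraries 3,4, adjusted p = 0.049).

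The 21 genes were named after their values were seen. ACPP, prostatic acid phosphatase (chromosome 3, 132317367 to 132368298), stood at 14.1, 14.7, 14.1 and 14.2 CPM in wt and at 26.8, 26.1, 24.2 and 23.0 CPM in F279S. All 4 F279S libraries lay above all 4 wt libraries, and wt differed little between the pairs (log2 change 0.79 ± 0.06, adjusted p = 8.1e-05). MYL9, a regulatory light chain of smooth muscle and nonmuscle myosin (chromosome 20, 36541484 to 36551447), stood at 45.5, 46.9, 47.6 and 51.1 CPM in wt and at 76.8, 87.8, 73.0 and 76.6 CPM in F279S, again without overlap (0.71 ± 0.06, adjusted p = 0.00026). TPM4, a tropomyosin that lines actin filaments (chromosome 19, 16067021 to 16103005), stood at 269, 273, 330 and 347 CPM against 446, 443, 448 and 461 CPM (0.57 ± 0.06, adjusted p = 0.00045). F279S libraries of both pairs reached nearly the same TPM4 level from different wt levels.

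CD209, the lectin DC-SIGN of dendritic cells and macrophages (chromosome 19, 7739994 to 7747564), stood at 36.7, 38.0, 71.3 and 67.5 CPM in wt and at 91.0, 81.7, 100.2 and 94.8 CPM in F279S. The groups did not overlap, yet the change was larger in libraries 1,2 (1.20) than in libraries 3,4 (0.49), and that difference itself was called (0.71 ± 0.10, adjusted p = 0.010). It was lost without wt library 1 or 2 or F279S library 1, with 0.68, 0.73 and 0.63. NKG7, a granule membrane protein of cytotoxic lymphocytes (chromosome 19, 51371606 to 51372715), stood at 13.9, 14.5, 15.3 and 17.0 CPM against 21.5, 22.6, 24.1 and 27.0 CPM (0.63 ± 0.06, adjusted p = 0.00051). The 8 markers of T and NK cells summed to 16.2 to 21.1 CPM in wt and 23.5 to 30.7 CPM in F279S, only NKG7 and NCAM1 of them reached 1 CPM in any library, and NCAM1 did not pass the test (0.02 ± 0.12). CD53, a leukocyte tetraspanin, rose by 0.45 ± 0.05, and the arginine transporter SLC7A2 by 0.64 ± 0.07.

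CRIP2, a LIM domain protein, and GBP2, an interferon-inducible GTPase, were low genes with steep rises. CRIP2 stood at 3.96, 3.97, 1.56 and 1.49 CPM in wt and at 6.79, 7.51, 3.48 and 3.32 CPM in F279S, so that the F279S values of libraries 3,4 lay under the wt values of libraries 1,2 (0.86 ± 0.09, adjusted p = 0.00091). GBP2 stood at 1.00, 0.82, 2.3 and 2.26 CPM against 3.25, 3.45, 4.96 and 5.14 CPM (1.22 ± 0.12, adjusted p = 0.00045), but its span overlaps GBP7 and its reads are uncertain. The remaining rises were MYBPH (0.77), a myosin-binding protein, C1orf186 (0.80), DAP (0.43), a death-associated protein, and SEL1L3 (0.37), PCDHGC3 (0.38) and PCDHGA12 (0.37), whose spans overlap other genes.

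**Figure D2:**
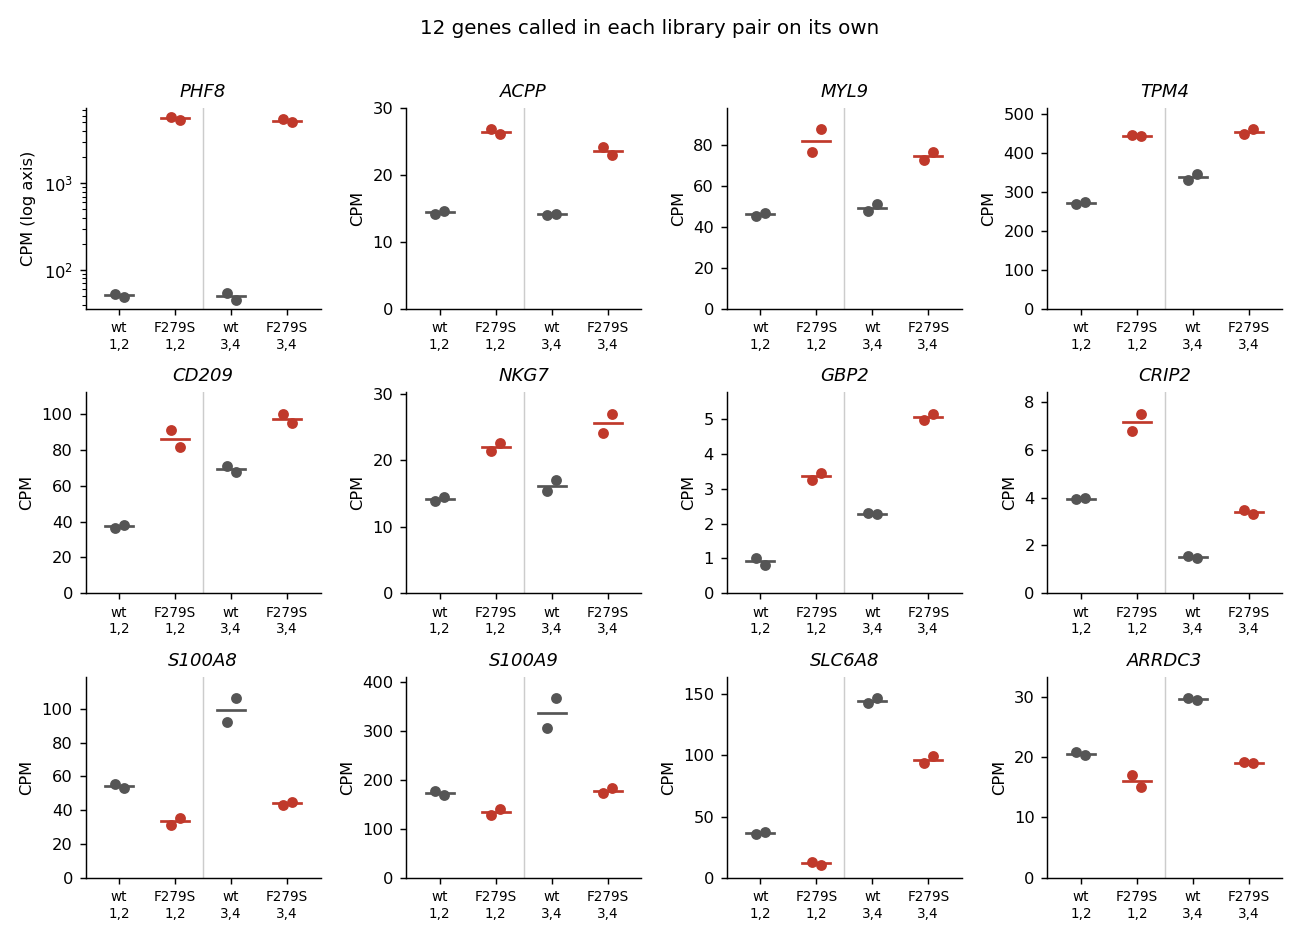
Levels in CPM of 12 of the 21 genes called within each library pair, for wt (grey) and F279S (red) in libraries 1,2 and 3,4. Points are libraries and lines are the means of 2, and the PHF8 axis is logarithmic. PHF8, ACPP and MYL9 sit at similar levels in both pairs, while S100A8, S100A9 and SLC6A8 start from higher wt levels in libraries 3,4.

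The falls called in each pair included both chains of calprotectin. S100A8 (chromosome 1, 153390032 to 153391188), which with S100A9 forms this calcium- and zinc-binding complex of myeloid cells, stood at 55.7, 53, 92.0 and 106 CPM in wt and at 31.2, 35.5, 43.1 and 45.1 CPM in F279S. The 4 F279S libraries lay below every wt library (-0.93 ± 0.09, adjusted p = 0.00045). S100A9 (chromosome 1, 153357854 to 153361027) stood at 177, 170, 306 and 367 CPM against 128, 141, 173 and 184 CPM (-0.64 ± 0.10, adjusted p = 0.0040), and here F279S libraries 3,4 reached the wt level of libraries 1,2. S100A12 beside them, a related inflammatory ligand, had log2 values of -0.45 in libraries 1,2 and -1.33 in libraries 3,4. Its call over all 8 libraries (-0.89 ± 0.18, adjusted p = 0.016) was lost without F279S library 1, at -0.88. ARRDC3, an arrestin-like protein that guides the turnover of surface receptors, stood at 20.8, 20.4, 29.7 and 29.4 CPM against 17.0, 15.0, 19.2 and 19.0 CPM (-0.49 ± 0.07, adjusted p = 0.0035). SLC6A8, the creatine transporter, fell by 1.08 on the log2 scale and ACSM1, a mitochondrial acyl-CoA ligase, by 0.92, both with spans that overlap another gene.

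Outside that set, the largest rises that held, among genes whose span overlaps no other gene, included those of CCL3, EGR2 and RNASE6. CCL3, a chemokine for monocytes, stood at 2.05, 1.85, 2.89 and 2.79 CPM in wt and at 6.14, 5.48, 5.31 and 4.48 CPM in F279S, without overlap (1.03 ± 0.14, adjusted p = 0.0028). EGR2, a zinc-finger factor of macrophages and of the immediate early response, stood at 1.35, 1.08, 1.02 and 0.58 CPM against 3.46, 2.69, 1.93 and 1.49 CPM (0.92 ± 0.15, adjusted p = 0.0056). RNASE6, a secreted antimicrobial ribonuclease, stood at 1.05, 1.65, 2.58 and 2.55 CPM against 3.20, 3.51, 3.94 and 4.54 CPM (0.85 ± 0.14, adjusted p = 0.0053). These 3 genes belong to the 147. CD86, a costimulatory ligand for T cells (0.96), A2M, a protease inhibitor (0.80), GPNMB, a lysosomal glycoprotein of macrophages (0.95), and ABCA1, the cholesterol exporter (0.91), also held. Each lost its call without wt library 1 or 2 or F279S library 2, and CD86, GPNMB and ABCA1 also without F279S library 1, with values of 0.63 to 1.06 for CD86, 0.69 to 0.74 for A2M, 0.77 to 0.90 for GPNMB and 0.76 to 0.82 for ABCA1.

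Of the largest falls, KDELC1 and DDIT4 belong to the 147. KDELC1, a glucosyltransferase of the endoplasmic reticulum, stood at 4.61, 4.38, 2.86 and 3.22 CPM in wt and at 1.69, 2.08, 1.73 and 1.69 CPM in F279S (-0.87 ± 0.12, adjusted p = 0.0028). DDIT4, an inhibitor of mTORC1 that stress and hypoxia raise, stood at 59.8, 58.7, 88.0 and 91.7 CPM against 23.3, 27.5, 67.8 and 72.2 CPM (-0.79 ± 0.13, adjusted p = 0.0061). The DDIT4 fall was larger in libraries 1,2, a difference that was called (-0.85 ± 0.11, adjusted p = 0.0073) and was lost without wt library 1 or 2, at -0.84 and -0.87. ANKRD36C (-0.74), ANKRD36 (-0.73), CCDC136 (-0.63), SALL4 (-0.62), EFCAB12 (-0.62) and PRAM1 (-0.62), an adaptor of neutrophil adhesion, fell as well. ANKRD36 and ANKRD36C are near-identical copies and their reads are uncertain. In wt these 6 genes stood higher in library 3 than in library 4. ANKRD36 and ANKRD36C lost their calls without wt library 1 or 2 or F279S library 2 (-0.65 to -0.76), and SALL4 without these or F279S library 4 (-0.51 to -0.70). EFCAB12 lost its call without wt library 1 or 2 or F279S library 1, 2 or 4 (-0.53 to -0.65), and PRAM1 without wt library 2 or F279S library 2 (-0.56 and -0.58).

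The gene lists are read against 3.91% of all genes tested called higher and 2.28% called lower. Lysosomal genes had the most calls of the 28 lists. Of 31 tested, 15 were higher and 0 lower, and the median change was 0.16, beside -0.01 over all genes tested. The count was 6 to 16 when 1 library was left out, 6 without wt library 1 or 2 and 7 without F279S library 1 or 2, and 5 of the 15 belong to the 147. CTSD, cathepsin D, stood at 343, 340, 384 and 409 CPM in wt and at 495, 535, 449 and 468 CPM in F279S (0.40 ± 0.07, adjusted p = 0.0066), though its span overlaps another gene. CTSS, cathepsin S, which processes antigen, stood at 122, 127, 123 and 134 CPM against 162, 159, 151 and 164 CPM (0.33 ± 0.04, adjusted p = 0.0028). In both, every F279S library lay above every wt library. CD63, a tetraspanin of late endosomes, rose by 0.32 ± 0.05 and CTSA, cathepsin A, whose span overlaps NEURL2 and PLTP, by 0.27 ± 0.04. Others called higher were CTSB, LAMP1, LIPA, NPC2, MCOLN1, ATP6V0D1, ATP6V1B2 and GPNMB, among them hydrolases, a sterol carrier, a channel and subunits of the proton pump. In the pairs the list's median was 0.25 and 0.13.

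Chaperones of the endoplasmic reticulum had similar medians in both pairs. Of 23 heat shock and chaperone genes, 10 were higher and 0 lower (4 to 11 when 1 library was left out, 4 without wt library 2 and 5 without wt library 1 or F279S library 2), with a median of 0.17 over all libraries, 0.18 in libraries 1,2 and 0.21 in libraries 3,4. HYOU1, a chaperone of the reticulum that hypoxia also raises (chromosome 11, 119044189 to 119057202), stood at 413, 405, 202 and 211 CPM in wt and at 577, 562, 252 and 255 CPM in F279S (0.39 ± 0.05, adjusted p = 0.0013). HSPA5, the chaperone BiP (chromosome 9, 125234853 to 125241330), stood at 878, 889, 398 and 425 CPM against 1109, 1147, 466 and 485 CPM (0.28 ± 0.05, adjusted p = 0.0053). In both genes the F279S libraries lay above wt within each pair, while the pairs stood further apart than the lines. PDIA4, a disulfide isomerase, rose by 0.33 ± 0.05 and CRELD2, whose span overlaps ALG12, by 0.39 ± 0.06. HSPA1B, HSP90B1, PDIA6, XBP1, SDF2L1 and HERPUD1 were the others called, and 0 of the 10 belong to the 147.

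Targets of NRF2, the regulator of antioxidant enzymes, had 9 of 22 members higher and 0 lower (median 0.16, 0.23 and 0.13 in the pairs), and 3 to 11 higher when 1 library was left out, 3 without wt library 1 or 2, 5 without F279S library 1 and 4 without F279S library 2. SLC7A11, the cystine importer that feeds glutathione synthesis (chromosome 4, 138164097 to 138242349), stood at 16.6, 17.5, 5.66 and 5.10 CPM in wt and at 26.9, 21.7, 8.5 and 9.53 CPM in F279S (0.59 ± 0.09, adjusted p = 0.0039). NQO1, a quinone reductase, stood at 39.3, 42.0, 33.7 and 41.2 CPM against 57.5, 60.1, 44.1 and 48.1 CPM (0.41 ± 0.07, adjusted p = 0.0064). F279S lay above wt within each pair for both genes, and for NQO1 over all 8 libraries. FTH1, the ferritin heavy chain, rose by 0.51 ± 0.09, overlaps BEST1, and lost its call without wt library 1 or 2 or F279S library 2 (0.43 to 0.46). HMOX1, GCLM, PGD, AKR1C1 and ME1 were also called higher.

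**Figure D3:**
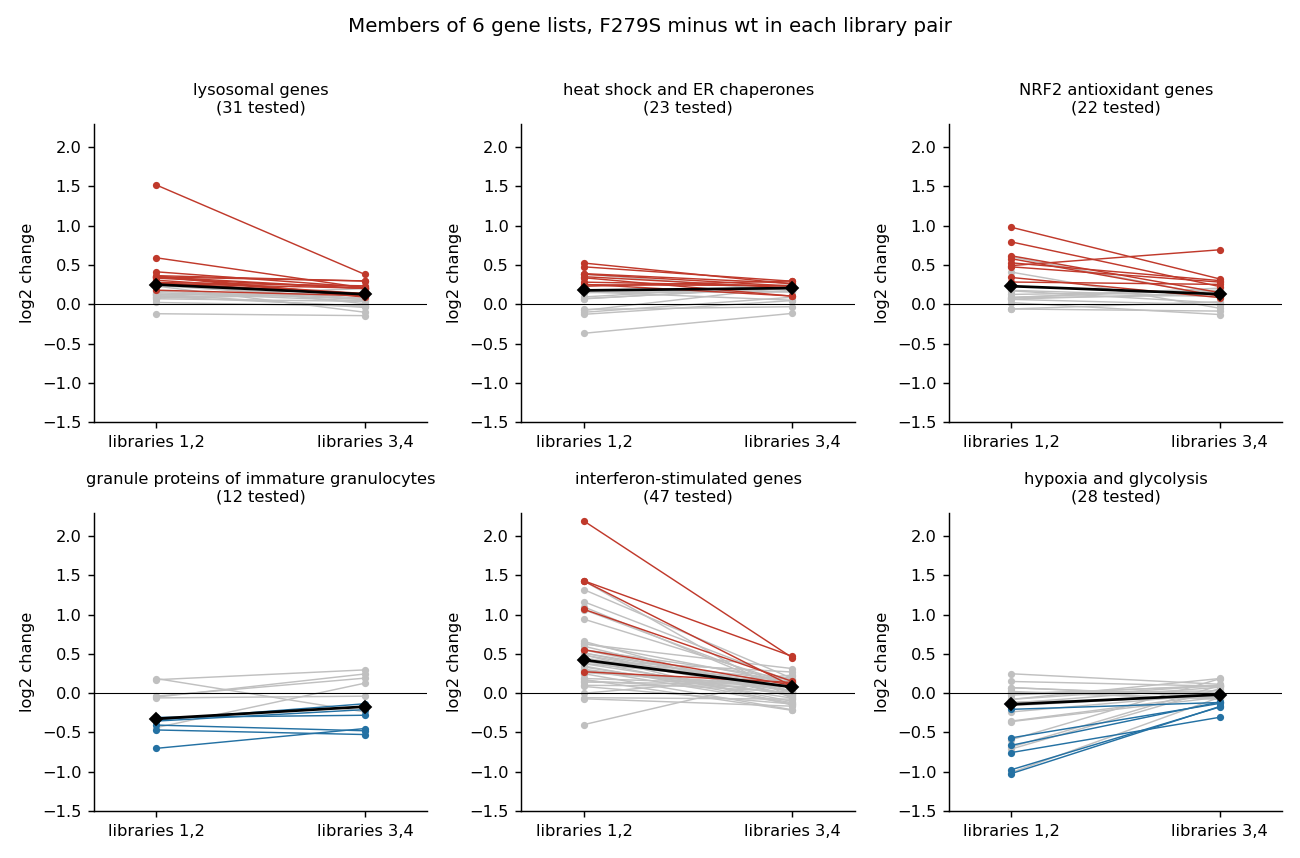
Change of each tested member of 6 gene lists in F279S against wt, as log2(CPM + 0.5), in libraries 1,2 and libraries 3,4. Each line joins the values of 1 gene, red and blue mark members called higher and lower over all 8 libraries, and black diamonds are list medians. Chaperone medians are level across the pairs, and the interferon-stimulated median drops from 0.42 to 0.08.

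Granule proteins that immature granulocytes and monocytes store moved the other way: of 12 tested, 0 were higher and 6 lower (2 to 6 when 1 library was left out, fewest without wt library 2), with a median of -0.20. CTSG, cathepsin G, a serine protease of azurophil granules (chromosome 14, 24573522 to 24576260), stood at 1444, 1433, 924 and 1134 CPM in wt and at 835, 934, 717 and 783 CPM in F279S. F279S library 2 alone exceeded a wt library, library 3, and within each pair the lines did not overlap (-0.58 ± 0.07, adjusted p = 0.0026). ELANE, neutrophil elastase, stood at 1110, 1024, 1074 and 1057 CPM against 781, 889, 901 and 942 CPM (-0.28 ± 0.06, adjusted p = 0.013), a call lost without wt library 1 or 2 (-0.25 and -0.29). AZU1, azurocidin, fell by 0.30 and lost its call without wt library 2, at -0.29. CEACAM6, a granulocyte adhesion molecule with an overlapping neighbour, fell by 0.50, and PRTN3 and PRG2 were the other falls. The median was -0.13 without F279S library 1. CTSG, LYZ and ELANE carried the lower sum of the 13 monocytic markers in F279S, with means of 1234 and 817, 855 and 665, and 1066 and 878 CPM in wt and F279S. The means of CD33, SPI1, ITGAM, KMT2A and MLLT3 were also lower in F279S. Those of CD68, CSF1R, CD14, MPO and FCGR1A were higher. In such bulk libraries fewer cells of a type and less RNA per cell cannot be told apart.

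Monocyte and macrophage genes split, with 8 of 40 higher, 4 lower and a median of 0.07. The 4 falls were the S100 genes above and LYZ, the lysozyme. CD68, CD36, CD86, EGR2, CTSB, CTSD and CTSS were among the rises, which include scavenger receptors, a costimulatory ligand and lysosomal proteases. CD36, a scavenger receptor for lipids, stood at 43.6, 44.1, 25.6 and 26.3 CPM in wt and at 56.4, 53.3, 33.3 and 33.6 CPM in F279S (0.34 ± 0.05, adjusted p = 0.0028). Its span overlaps GNAT3, and F279S lay above wt within each pair. When 1 library was left out, 5 to 12 members were higher, 5 without wt library 1 or 2 or F279S library 2, and 3 to 5 lower. With the block 13 were higher and 5 lower.

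Adhesion receptors had 7 of 22 members higher and 1 lower (median 0.13, 0.11 and 0.15 in the pairs; 4 to 7 higher when 1 library was left out, 4 without wt library 1). CD82, a tetraspanin, stood at 32.2, 30.0, 61.4 and 68.9 CPM in wt and at 57.2, 61.8, 81.2 and 81.4 CPM in F279S (0.62 ± 0.10, adjusted p = 0.0053). CD99, which leukocytes use to cross endothelium, rose by 0.33 ± 0.05, and ITGA5, the fibronectin receptor's alpha chain, by 0.22 ± 0.04. ITGB1, ITGB5, PECAM1 and CD63 were the other rises and ICAM3 the fall. CD82, CD99, ITGA5 and CD63 belong to the 147.

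Chemokine and NF-kB target genes had 4 of 23 higher and 0 lower (median 0.07; 3 to 5 when 1 library was left out). TNF, the inflammatory cytokine (chromosome 6, 31575567 to 31578336), stood at 32.0, 29.5, 56.3 and 43.8 CPM in wt and at 53.7, 54.8, 71.8 and 61.8 CPM in F279S (0.61 ± 0.09, adjusted p = 0.0040). CCL5, a chemokine for T cells and monocytes, stood at 91.1, 95.1, 142 and 158 CPM against 146, 152, 175 and 182 CPM (0.47 ± 0.07, adjusted p = 0.0051). Within each pair both genes were higher in both F279S libraries. IL1B rose by 0.58 ± 0.13, and its call was lost without wt library 1 or 2 or F279S library 1 or 2 (0.49 to 0.52). Of 25 immediate early and AP-1 genes, 3 were higher: FOS (0.47 ± 0.09), EGR2 and EGR3 (0.69 ± 0.10). The count was 5 without wt library 3 and with the block, and FOS lost its call without wt library 1 or 2 or F279S library 2 (0.43 to 0.45).

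Genes of chromatin and of the leukaemic programme are read against the same shares of all genes tested, 3.91% higher and 2.28% lower. Among 21 histone demethylases tested, PHF8 and JMJD6 were higher and KDM4B and KDM5D lower (median -0.08). JMJD6, a Jumonji oxygenase, stood at 36.0, 37.4, 35.5 and 37.6 CPM in wt and at 46.2, 47.2, 44.2 and 42.5 CPM in F279S, without overlap (0.29 ± 0.05, adjusted p = 0.0053). KDM4B and KDM5D did not hold in both pairs. KDM4B (-0.33) lost its call without wt library 1 or 2 or F279S library 1 or 2 (-0.28 to -0.31), where the list had 0 lower, and KDM5D lost its call in 6 of the 8 fits with a library left out. With the library number as a block 4 demethylases were lower. Of 25 histone methyltransferases, EHMT1 (-0.19) and SMYD3 (-0.20) were lower and 0 higher (median -0.10), and 8 were lower with the block. EHMT1 lost its call in 6 and SMYD3 in 4 of the 8 fits with a library left out, at -0.16 to -0.21 and -0.17 to -0.23, those without wt library 1 or 2 or F279S library 1 or 4 for both and without wt library 3 or F279S library 2 for EHMT1 alone.

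Of 23 genes that MLL fusions keep active, 1 was higher and 4 lower (0 to 6 lower when 1 library was left out, 0 without wt library 1 or 2 or F279S library 2 and 1 without F279S library 1 or 4), with a median of -0.04. With the block 9 were lower. FLT3, a growth factor receptor of leukaemic progenitors, stood at 49.8, 50.2, 60.3 and 56.2 CPM in wt and at 60.2, 56.3, 77.8 and 76.0 CPM in F279S, higher within each pair (0.31 ± 0.05, adjusted p = 0.0055). MYC stood at 264, 264, 199 and 197 CPM against 235, 240, 178 and 180 CPM (-0.15 ± 0.04, adjusted p = 0.028), a fall of small size that was lost without any 1 of wt libraries 1 and 2 and the 4 F279S libraries (-0.14 to -0.15). BMI1 (-0.21), whose span overlaps COMMD3-BMI1, CDK6 (-0.26) and PBX3 were the other falls. BMI1 and CDK6 lost their calls without wt library 1 or 2 or F279S library 1 or 2, at -0.17 to -0.21 and -0.18 to -0.28, and CDK6 also without F279S library 4, at -0.26.

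Cell cycle and growth genes are likewise read against 3.91% higher and 2.28% lower. Of 26 genes of replication and G1/S, CDC6 (0.22), CCND3 (0.31) and SLBP (0.17) were higher and 0 lower, with 1 higher without wt library 1 or 2 and 6 with the block. CCND3, the D cyclin of blood cells, stood at 330, 309, 263 and 280 CPM in wt and at 391, 420, 317 and 338 CPM in F279S (0.31 ± 0.05, adjusted p = 0.0040), higher within each pair and 1 of the 147. Of 22 mitosis genes 4 were higher and 0 lower (0 without wt library 1 or 2 or F279S library 1 or 2, 10 without wt library 4, 9 with the block). The change of all 22 lay above 0, beside 6425 of the 13438 genes tested. In libraries 1,2 it did for 22 and in libraries 3,4 for 19, beside 6315 and 6519 of all genes tested. The list's median was 0.12, with 0.19 and 0.07 in the pairs. Of 29 p53 and apoptosis genes 3 were higher (1 without wt library 1 or F279S library 2), led by CDKN1A, the inhibitor p21, at 16.8, 14.6, 56.1 and 55.6 CPM against 24.2, 27.1, 71.6 and 74.9 CPM (0.54 ± 0.07, adjusted p = 0.0028). Ribosome biogenesis had MYC alone lower of 29, and 1 of 9 class II genes, HLA-DQB1, was lower (-0.31). HLA-DQB1 lost its call without wt library 1 or 2 or F279S library 1 or 2 (-0.23 to -0.35). Of 18 class I presentation genes limma called 0 (6 at an unadjusted p below 0.05, 0 by voom, 2 higher and 1 lower with the block), with a median of 0.01. Of 26 genes that sense nucleic acids or relay interferon signals, 0 were called over all libraries by limma (8 at an unadjusted p below 0.05, 0 by voom, 2 higher and 2 lower with the block) and 2 were higher within libraries 1,2. The 21 interferon genes listed were too low to test.

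**Figure D4:**
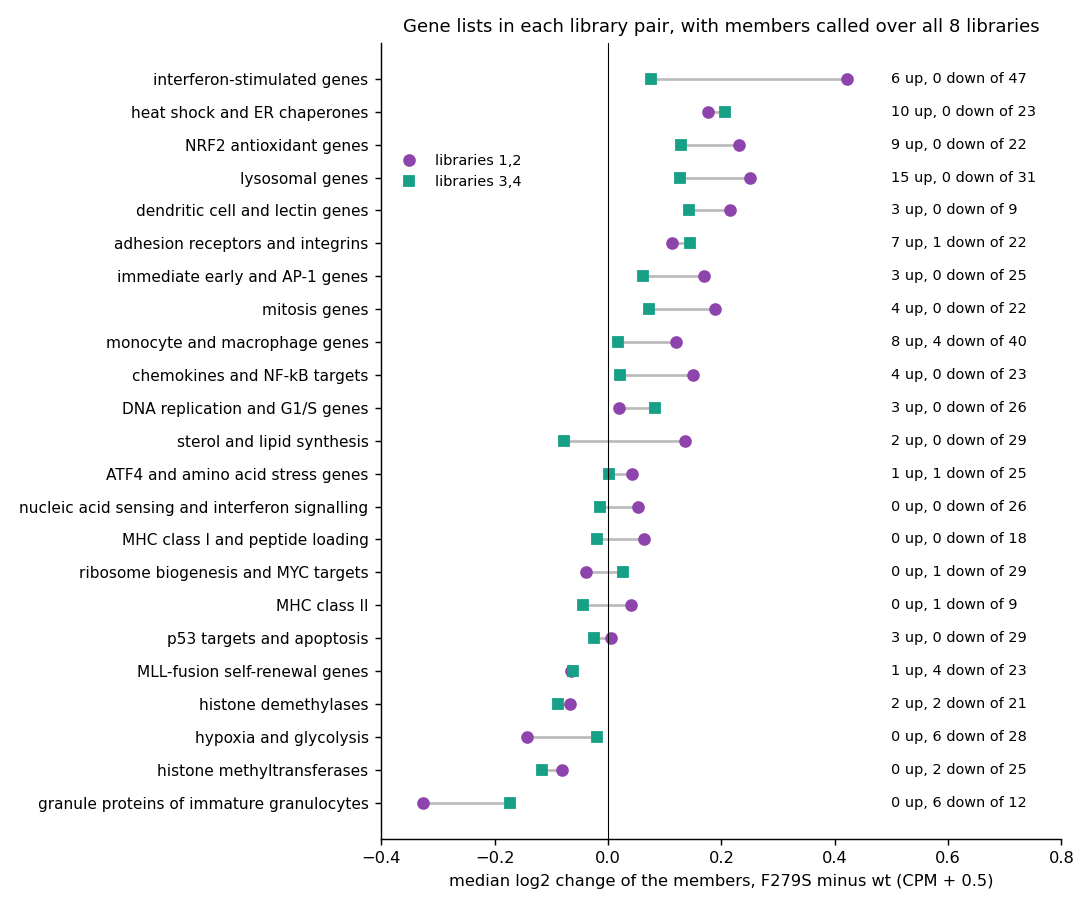
Median log2(CPM + 0.5) change of the tested members of each gene list in F279S against wt, in libraries 1,2 (circles) and libraries 3,4 (squares), with the number of members called higher (up) and lower (down) over all 8 libraries on the right. Chaperone, lysosomal, NRF2 and adhesion medians lie above 0 in both pairs, granule proteins below 0 in both, and interferon-stimulated genes lie at 0.42 and 0.08.

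The change of 76 genes differed between the library pairs (0.566% of genes tested), with 40 more positive in libraries 1,2 and 36 more negative. The list with the most such genes was that of interferon-stimulated genes, with 9 of 47, beside 7 of 28 hypoxia and glycolysis genes. Of the 47, 6 were called higher over all 8 libraries and 0 lower. Within libraries 1,2, 24 were higher and 1 lower, CMPK2, and within libraries 3,4 limma called 0 (4 at an unadjusted p below 0.05, 1 by voom). The median change was 0.42 in libraries 1,2 and 0.08 in libraries 3,4. Over all 8 libraries the count was 1 to 18 when 1 library was left out, and it was 1 without wt library 1 or 2 or F279S library 1 or 2, 18 without wt library 3, 16 without wt library 4 and 11 without F279S library 3 or 4. It was 17 with the library number as a block.

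The OAS enzymes, which sense double-stranded RNA and activate RNase L, show the form of this difference. OAS2 (chromosome 12, 112978395 to 113011723) stood at 9.81, 10.4, 10.7 and 11 CPM in wt and at 29.4, 26.7, 11.5 and 11.6 CPM in F279S. Only F279S libraries 1,2 were far from wt (1.43 in libraries 1,2, adjusted p = 1.4e-05; 0.09 in libraries 3,4, adjusted p = 0.71; difference 1.34 ± 0.13, adjusted p = 0.0010). OAS3 (chromosome 12, 112938352 to 112973249) stood at 16.5, 17.4, 16.2 and 17.0 CPM against 36.5, 35.7, 18.4 and 18.5 CPM (difference 0.92 ± 0.11, adjusted p = 0.0030). OAS1 stood at 4.76, 4.64, 6.70 and 6.93 CPM against 14.1, 12.9, 9.77 and 9.45 CPM. It was the 1 member of the list among the 147 and rose by 0.95 ± 0.16 over all libraries (adjusted p = 0.0053). The OAS1 difference between the pairs (0.96 ± 0.14, adjusted p = 0.016) was lost without wt library 1 or 2 or F279S library 1, 2 or 4 (0.90 to 1.03).

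MX1, a dynamin-like GTPase that blocks viruses (chromosome 21, 41420304 to 41459214), stood at 4.96, 4.53, 4.57 and 3.75 CPM in wt and at 13.8, 13.4, 3.74 and 4.10 CPM in F279S. The F279S libraries 3,4 lay inside or below the wt range (1.43 in libraries 1,2; -0.07 in libraries 3,4; difference 1.5 ± 0.18, adjusted p = 0.0030). TRIM22, an antiviral ubiquitin ligase whose span overlaps TRIM5, stood at 1.75, 1.80, 2.22 and 2.02 CPM against 10.5, 9.32, 3.32 and 2.85 CPM (difference 1.74 ± 0.20, adjusted p = 0.0024). MX2 changed by 0.27 and 0.14 in the pairs. The differences for OAS2, OAS3, MX1 and TRIM22 stayed called whichever library was left out. Over all 8 libraries MX1 was not called (adjusted p = 0.10), and OAS2, OAS3 and TRIM22 lost their calls there without wt library 1 or 2 or F279S library 1 or 2, at 0.60 to 0.65, 0.50 to 0.53 and 1.11 to 1.18.

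Promoters of interferon-stimulated genes often hold the interferon-stimulated response element, which interferon-activated STAT and IRF factors bind. The promoter windows of OAS3 and MX1, 2 genes called in libraries 1,2 and not in libraries 3,4, are shown as examples, from RefSeq on GRCh38.p14, 250 bases before to 50 after the gene's start, each on the plus strand. Capitals mark matches to its core GAAANNGAAA, which was searched on both strands (TTTCNNTTTC on the other).
OAS3, chr12:112938224-112938523: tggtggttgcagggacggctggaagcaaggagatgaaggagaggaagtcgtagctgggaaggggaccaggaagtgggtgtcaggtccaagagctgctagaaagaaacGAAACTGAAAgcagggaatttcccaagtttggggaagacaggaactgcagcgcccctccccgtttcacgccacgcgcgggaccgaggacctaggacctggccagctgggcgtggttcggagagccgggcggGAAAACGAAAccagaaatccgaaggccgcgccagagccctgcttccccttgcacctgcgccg
MX1, chr21:41420308-41420607: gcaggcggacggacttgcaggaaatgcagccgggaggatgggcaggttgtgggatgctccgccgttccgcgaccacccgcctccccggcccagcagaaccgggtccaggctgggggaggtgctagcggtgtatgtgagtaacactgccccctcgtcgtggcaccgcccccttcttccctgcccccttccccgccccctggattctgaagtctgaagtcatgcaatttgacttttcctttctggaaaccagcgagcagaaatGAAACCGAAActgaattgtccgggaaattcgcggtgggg
The OAS3 window held 2 matches and the MX1 window 1. Windows were found for 38 of the 47 genes of the list by symbol, and 25 of them (65.8%) held a match, beside 1255 of 35116 windows of the whole table (3.57%) and 293 of 10147 windows of genes tested (2.89%). Among the members higher within libraries 1,2 the share was 11 of 19 and among the other members 14 of 19. A match is a description of the sequence.

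Of other lists, 1 of 40 monocyte and macrophage genes, 1 of 29 sterol and lipid genes and 4 of 9 dendritic cell and lectin genes (CD209, FCER2, CD1D and SIGLEC1) differed between the pairs. Over all libraries 3 of the 9 were higher and 0 lower, and 5 were higher with the block. CD14, ABCA1, SPP1 and SIGLEC1 had some of the largest differences. CD14, the co-receptor for endotoxin, stood at 2.25, 2.32, 8.07 and 8.37 CPM in wt and at 7.05, 7.95, 8.26 and 8.75 CPM in F279S. All F279S libraries lay near the wt level of libraries 3,4, and wt libraries 1,2 stood apart below (difference 1.47 ± 0.16, adjusted p = 0.0024, called whichever library was left out). ABCA1 stood at 5.61, 5.67, 11.8 and 8.95 CPM against 18.3, 16.4, 13.4 and 11.8 CPM (difference 1.25 ± 0.18, adjusted p = 0.015). SPP1, osteopontin, stood at 3.66, 2.83, 44.3 and 49.3 CPM against 7.83, 9.87, 50.4 and 50.9 CPM (difference 1.20 ± 0.18, adjusted p = 0.017). The ABCA1 difference was lost without wt library 1 or 2 or F279S library 1 or 2 (1.18 to 1.33) and the SPP1 difference without wt library 2 or F279S library 2 (1.04 and 1.05). SIGLEC1, a sialic acid receptor of macrophages that interferon raises, differed by 1.14 ± 0.21, a call lost in 6 of the 8 fits with a library left out, all but those without wt library 3 or 4 (1.07 to 1.22).

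**Figure D5:**
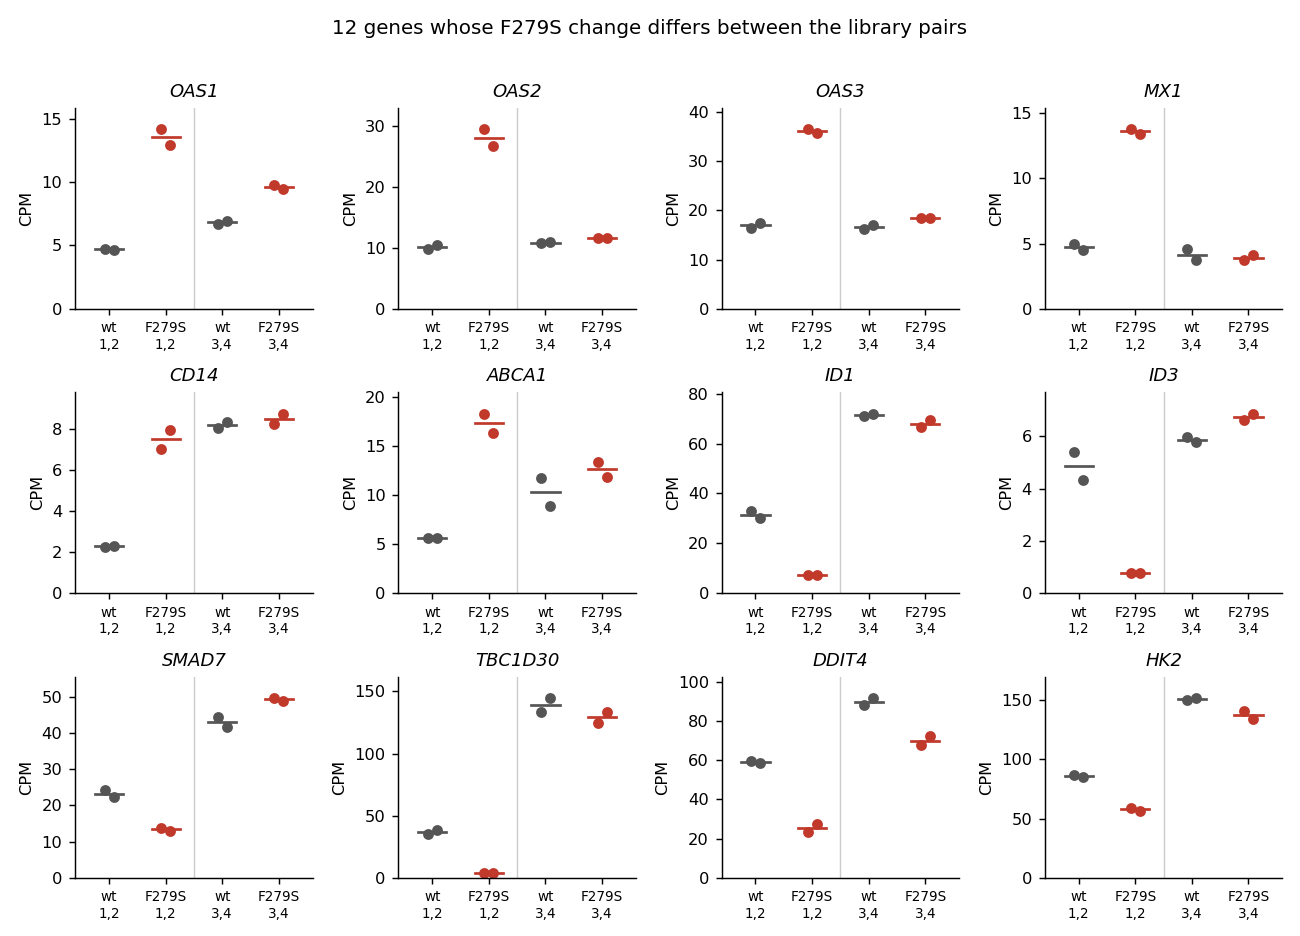
Levels in CPM of 12 genes whose F279S change differed between the library pairs, for wt (grey) and F279S (red) in libraries 1,2 and 3,4; points are libraries and lines are the means of 2. OAS2, OAS3 and MX1 are high in F279S libraries 1,2 alone, TBC1D30, ID1 and ID3 are lowest in F279S libraries 1,2, and CD14 is low in wt libraries 1,2 alone.

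The steepest falls of the comparison also lay in libraries 1,2 alone. TBC1D30, a GTPase-activating protein for Rab8 (chromosome 12, 64781193 to 64881032), stood at 35.6, 38.1, 134 and 145 CPM in wt and at 4.02, 4.17, 124 and 134 CPM in F279S. F279S libraries 1,2 held far less than any other library, and libraries 3,4 of the lines overlapped (-3.02 and -0.11; difference -2.91 ± 0.10, adjusted p = 2.7e-07). ID1, which blocks DNA binding by helix-loop-helix factors and which BMP signals induce through SMADs (chromosome 20, 31605283 to 31606515), stood at 32.8, 30.3, 71.0 and 71.9 CPM against 7.49, 7.40, 66.6 and 69.4 CPM (difference -1.94 ± 0.10, adjusted p = 6.5e-06). ID3, of the same family (chromosome 1, 23557918 to 23559794), stood at 5.41, 4.33, 5.96 and 5.77 CPM against 0.78, 0.77, 6.63 and 6.85 CPM (difference -2.25 ± 0.20, adjusted p = 0.00052). For TBC1D30, ID1 and ID3 the difference stayed called whichever library was left out. Over all 8 libraries TBC1D30 (-1.56 ± 0.42, adjusted p = 0.048) lost its call without wt library 1 or 2 or F279S library 1 or 2 (-1.25 to -1.29). ID1 was called narrowly there (-1.04 ± 0.28, adjusted p = 0.049, -0.82 to -0.87 and not called without wt library 1 or 2 or F279S library 1 or 2), and ID3 was not (adjusted p = 0.11).

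Other feedback genes of BMP and TGF-beta signalling, chosen after the ID values were seen, followed in part. Of the 5 beside ID1 and ID3, SMAD6, SMAD7, SKIL and SKI were called lower within libraries 1,2 (1.93% of all genes tested were), and SMAD6, SMAD7 and SKIL differed between the pairs (0.268% were more negative in libraries 1,2). ID2 was called in neither test. SMAD7, an inhibitory SMAD, stood at 24.3, 22.3, 44.4 and 41.7 CPM in wt and at 13.9, 13, 49.7 and 49.0 CPM in F279S, below wt in libraries 1,2 and above it in libraries 3,4 (difference -0.96 ± 0.11, adjusted p = 0.0024). RGS16, a regulator of G protein signals, JPH2, a junction protein of muscle, and DLX3, a homeobox factor, differed by -1.45 ± 0.12, -1.62 ± 0.30 and -1.61 ± 0.27. JPH2 lost this call without wt library 1 or 2 or F279S library 1, 2 or 3 (-1.34 to -1.89) and DLX3 without wt library 1 or 2 or F279S library 1, 2 or 4 (-1.43 to -1.76).

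Hypoxia and glycolysis genes also differed. Of 28 tested, 6 were lower over all 8 libraries and 0 higher (1 without wt library 1 or 2 or F279S library 1 or 2 and 10 without wt library 3). Within libraries 1,2, 11 were lower, within libraries 3,4 limma called 0 (4 at an unadjusted p below 0.05, 0 by voom), and 7 differed between the pairs; the medians were -0.14 and -0.02. HK2, hexokinase 2 (chromosome 2, 74833981 to 74893359), stood at 87.2, 84.9, 150 and 152 CPM in wt and at 59.0, 56.7, 141 and 135 CPM in F279S. F279S lay below wt in both pairs, at -0.57 and -0.13. The HK2 call (-0.35) was lost without wt library 1 or 2 or F279S library 1 or 2 (-0.29 to -0.32). SLC2A3, a glucose transporter, stood at 7.36, 6.65, 21.9 and 21.1 CPM against 3.98, 3.89, 16.6 and 18.0 CPM (-0.53 ± 0.10, adjusted p = 0.0081), and its difference between the pairs was not called (adjusted p = 0.34). In wt both genes stood lower in libraries 1,2 than in libraries 3,4.

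Levels in the F279S line were last set beside those of the line with active PHF8. The comparisons of both lines with wt share the wt libraries, so only the direct test of F279S against PHF8 is given. It called 5565 of 13683 genes (40.7%). Among the 798 genes that held in F279S against wt it called 478, and among the 21 called in each pair 17. Both sets were chosen with the same F279S libraries, so their counts are not an independent test. For CD209 the PHF8 libraries stood at 24.6, 22.8, 18.6 and 17.9 CPM, below wt and far below F279S (F279S minus PHF8 2.11 ± 0.18, adjusted p = 1.4e-06). For TPM4 they stood at 211, 197, 307 and 318 CPM (0.83 ± 0.09, adjusted p = 1.1e-05) and for NKG7 at 14.9, 17.5, 14.9 and 16.6 CPM (0.56 ± 0.08, adjusted p = 0.00011). TPM4 lay below the wt library of the same number in each case, and NKG7 lay near the wt range and below all F279S libraries. CCL5 at 44.3, 44.9, 40.9 and 43.4 CPM and TNF at 26.2, 30.0, 30.5 and 28.1 CPM lay lower than in F279S by 1.9 ± 0.11 and 1.06 ± 0.12.

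For ACPP, GBP2, OAS1 and S100A8 the PHF8 line stood further from wt than F279S did. ACPP was at 39.7, 35.6, 36.2 and 38.7 CPM in the PHF8 line (F279S minus PHF8 -0.58 ± 0.06, adjusted p = 7.8e-06). GBP2 was at 5.68, 5.34, 7.69 and 7.04 CPM (-0.57 ± 0.12, adjusted p = 0.0021) and OAS1 at 18.8, 20.6, 19.0 and 19.0 CPM (-0.74 ± 0.15, adjusted p = 0.0014), with no gap between the pairs such as F279S showed. S100A8 was at 22.8, 22.4, 24.4 and 24.7 CPM, below F279S (0.69 ± 0.12, adjusted p = 0.00045). ARRDC3 at 36.4, 30.8, 42.0 and 43.5 CPM and KDELC1 at 9.63, 10.4, 8.09 and 9.32 CPM lay above wt in the PHF8 line and below it in F279S (-1.09 ± 0.07 and -2.10 ± 0.11). DAP, at 232, 240, 214 and 229 CPM, did not pass the test against F279S (-0.01 ± 0.05, adjusted p = 0.88). In F279S the PHF8 RNA itself exceeded that of the PHF8 line by 1.41 ± 0.06, so the lines differ in the amount of PHF8 RNA as well as in its catalytic site, and the parts of the amount and the substitution cannot be told apart.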

How the data were processed

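Poly(A) RNA sequencing of 4 F279S and 4 wt THP-1 libraries was compared, with 4 PHF8 libraries beside them. The authors deposited RPKM values per gene on hg38 coordinates; the submitters' processing notes name STAR 2.7.0c, SAMtools 1.9 and DESeq2, while the counter, its strand setting and annotation are not stated there or in the labels. RPKM was multiplied by the gene span in kb to give CPM. 100.0% of values were whole reads within 0.01 read, so whole reads recovered this way gave library totals of 18.2 to 51.5 M. Reads were counted over the whole span, so the 6569 genes that overlap another are uncertain.

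Differences were fitted on log2(CPM + 0.5) with limma 3.58.1 in R 4.3.3 (trended variance), line and library pair (1,2 or 3,4) as terms, over genes of at least 1 CPM in 4 of 8 libraries, with Benjamini-Hochberg adjustment and a threshold of 0.05. Changes within a pair and their difference came from means per line and pair, with the spread pooled over all 8 libraries. F279S was compared with PHF8 in 12 libraries and 13683 genes. The fit was tested on simulated data with the same change in both pairs, so that test cannot speak to changes that differ between the pairs. Deviations of same-numbered libraries from their line means correlated at 0.813, 0.816, 0.912 and 0.840, which by the rule used pairs the numbers. F279S libraries 1 and 2 nevertheless correlated best with wt libraries 2 and 1. After removing pair means the same-number correlations were -0.03, -0.03, 0.68 and 0.68. Named by rule were PHF8, the 12 largest rises and 12 largest falls that held and overlap no other gene, up to 4 members of each list with the smallest p-values, and the 6 largest differences between the pairs each way among non-overlapping genes. The genes called in each pair, further list members and the BMP genes were named after their values were seen. The members, the 28 lists and the genes were chosen with earlier results of these data known. Some genes counted in these lists are not reported here by name.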

Additional observations from a re-analysis of the deposited data

Results flagged for a closer look

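The change in F279S against wt differed between the library pairs for 76 genes by limma's test of that difference, with Benjamini-Hochberg adjustment. Values below are the log2 change in libraries 1,2 minus that in libraries 3,4. Among interferon-stimulated genes, TRIM22 differed by 1.74, MX1 by 1.5, OAS2 by 1.34, OAS1 by 0.96 and OAS3 by 0.92. Among macrophage, dendritic and surface genes, CD14 differed by 1.47, ABCA1 by 1.25, SPP1 by 1.20, SIGLEC1 and GPNMB by 1.14 each, FCER2, the low-affinity IgE receptor, by 0.92, CD209 by 0.71 and CD82 by 0.60. FTH1 differed by 0.57. Changes more negative in libraries 1,2 were those of TBC1D30 at -2.91, ID3 at -2.25, ID1 at -1.94, JPH2 at -1.62, DLX3 at -1.61 and RGS16 at -1.45. The hypoxia genes PFKFB4, P4HA1 and HK2 and the stress gene DDIT4 stood at -0.80, -0.55, -0.44 and -0.85. Of these, TRIM22, MX1, OAS2, OAS3, CD14, TBC1D30, ID3, ID1 and RGS16 kept the call whichever library was left out, and the others lost it without at least 1 library.

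In 5 groups of 4 libraries, 1 library of a named gene lay far from the other members of its group. Chance alone flags about 1 in 20 groups of alike libraries, which the library pairs are not. The wt and F279S groups of the named called genes, 96 beside PHF8, were examined. So were those of COL1A1, which was not called, and of named genes whose change differed between the pairs. Genes on chromosome Y were left out. Since that rate does not apply to libraries that fall into pairs, the 5 flags were not judged against it. COL1A1 stood at 20.5 CPM in F279S library 2. CTSA stood at 138 CPM and KDELC1 at 2.08 CPM in the same library. EFCAB12 stood at 7.22 CPM in wt library 3 and at 4.00 CPM in F279S library 3.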

How the results depend on the processing

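No named gene changed sign under a setting run, but 20 list medians did, in 8 lists, 5 of them with a median under 0.03 in size and the other 3 lists of markers of other cells with few genes tested. Calls were mostly lower in place of mostly higher with the block and without wt library 4 (668 higher, 804 lower over all libraries, 176 and 428 within libraries 3,4). The number of genes called moved from 832 to 3 without the pair term, 2167 with the library number as a replicate block (1002 higher, 1165 lower), 458 with pairs averaged (228 and 230), 299 with all 12 libraries in the fit (208 and 91), 438 with no filter on low values and 496 with voom on recovered reads. Genes that held moved from 798 to 3, 1481, 370, 296, 438 and 493 in the same order. Within libraries 1,2 the count of 746 moved to 1172 with all 12 libraries, 409 with no filter and 455 with voom. Within libraries 3,4 the count of 31 moved to 176, 3 and 111 in the same order and to 87 with median-of-ratios scaling. Differences between the pairs moved from 76 to 123, 27 and 47. F279S against PHF8 moved from 5565 to 2750 without the pair term and to 3613 with genes that overlap no other gene, where fewer genes were tested. The cause of the other moves was not tested. Leaving out 1 library gave 209 to 1472 genes called, 209 to 1445 that held, 4664 to 5728 against PHF8, and 6.68 to 6.77 for PHF8. Within libraries 1,2 it gave 147 to 1217, fewest without wt library 1 (147) or 2 (151) or F279S library 1 (334) or 2 (241) and most without wt library 3 (1217) or 4 (1212). Within libraries 3,4 it gave 5 to 604, with 604 without wt library 4, 61 without wt library 3, and 5 to 13 without any of the others. Differences between the pairs numbered 22 to 109, with 50 or fewer without any library of F279S or wt library 1 or 2. Of 97 named results beside PHF8, 96 were called. Whether a result was called or not stayed the same for 97 with the replicate block and 95 with median-of-ratios scaling. It did for 3 without the pair term, of which only ACPP and MYL9 were called. Of 437 list medians under the settings, 5 moved by more than the spread between libraries. The library totals of 18.2 to 51.5 M reads bound the precision for genes near 1 CPM.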

Other observations

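Genes called within libraries 3,4 and not within libraries 1,2 numbered 9, 4 higher and 5 lower in F279S. They were S100A12, LYZ, FLT3, CCL2, SLPI, ANXA4, NKD2, LSP1 and ENDOD1, and were named after their values were seen. The median transcript GC content was 51.2% for genes called higher, 51.9% for genes called lower and 50.1% for genes not called, and the median gene span was 29.8, 37.5 and 33.4 kb. In F279S, 547 genes stood at least 2-fold apart between the library pairs, beside 651 in wt.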
